A study of Mus musculus with 8 samples.

Results

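The data described here are the mRNA levels of 8 members of the TNF and TNF receptor families in myeloid cells of lupus-prone sanroque mice. They were 6 ligands, namely *Tnfsf13b* (BAFF), *Tnfsf13* (APRIL), *Tnfsf12* (TWEAK), *Tnfsf14* (LIGHT), *Tnfsf9* (4-1BB ligand) and *Tnfsf10* (TRAIL), and 2 receptors, *Tnfrsf1a* (TNFR1) and *Tnfrsf1b* (TNFR2). Each was taken as the row of the deposited count table with that gene symbol, so the members were 8 of 54188 genes. All 8 had a single row, and all 8 were among the 17650 genes that passed the filter on low counts. CD11b+Gr-1hi cells, labelled G-MDSC, and CD11b+Gr-1lo cells, labelled M-MDSC, were sorted from spleen (SP) and bone marrow (BM) of mice aged 20 weeks. Every mouse was homozygous for the sanroque allele of Roquin (san/san) on a C57BL/6 background, untreated as far as the labels say and labelled female. No wild-type library was analysed here, so the comparisons are between organs and subsets of sanroque mice, not between disease and health. Each of the 4 groups had 2 libraries. Libraries 5 and 6 were SP Gr-1hi, 7 and 8 SP Gr-1lo, 9 and 10 BM Gr-1hi, and 11 and 12 BM Gr-1lo.

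BAFF and APRIL are related ligands that sustain B cells and plasma cells. BAFF binds BAFF-R, TACI and BCMA, whereas APRIL binds TACI and BCMA. Myeloid cells are a known source of both. TWEAK binds Fn14, LIGHT binds HVEM and the lymphotoxin beta receptor, 4-1BB ligand costimulates T cells through 4-1BB, and TRAIL can trigger apoptosis through its death receptor. TNFR1 carries a death domain and is found on most cells, whereas TNFR2 lacks one and is known mainly from leukocytes. Most of these ligands are made as membrane proteins that can be cleaved, so an mRNA level is not a measure of the soluble cytokine.

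The libraries held 33453580 to 68316154 counts on genes. CPM, the counts of a gene relative to the library total, had TMM scaling (edgeR), and transcript levels on the TPM scale, which also divide by exon length, were used wherever 2 genes were compared. Where no read was counted, a level of up to 3 counts, equal to 0.0348 to 0.124 CPM, remains possible from counting error alone. *Ly6g*, part of the Gr-1 epitope, lay between 330.01 and 801 CPM in Gr-1hi libraries and between 3.07 and 8.23 CPM in Gr-1lo libraries, in the direction of the labels. *Csf1r*, a monocyte and macrophage receptor gene, was at 133 to 375 CPM in Gr-1hi and 436 to 754 CPM in Gr-1lo libraries. Libraries 5 and 7 stood apart. *Xist*, expressed from the inactive X chromosome of females, had 12032 counts in library 5 and 9898 in library 7 but at most 5 in each of the others, and the Y-linked *Ddx3y* was at 33.7 to 82.6 CPM in all libraries except library 5, where it had 0 counts. These values went against the label female in library 6 and libraries 8 to 12, and library 7 held both transcripts. Libraries 5 and 7 were both from spleen, so sex and organ cannot be fully told apart. Each comparison was therefore also made without libraries 5 and 7. That left only library 6 in SP Gr-1hi and library 8 in SP Gr-1lo, so a call lost there can reflect the smaller groups and is not read as an effect of sex. Spleen libraries also carried more mRNA of other cells. The summed level of 10 B cell markers was 360.4 to 537 CPM in SP Gr-1hi, 66.7 to 83.8 CPM in SP Gr-1lo, 16.3 to 19.9 CPM in BM Gr-1hi and 8.07 to 9.90 CPM in BM Gr-1lo libraries.

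The promoter windows of 3 ligands are shown because *Tnfsf13b*, *Tnfsf13* and *Tnfsf14* were called between the subsets in both organs and in opposite directions. They are RefSeq sequences on GRCm38.p6 that run 5′ to 3′ on the gene's strand, from 250 bases before a transcription start to 50 after it. *Tnfsf13b* has a pair of annotated starts, and the window of the downstream start is printed. The window of the upstream start held the same AP-1 letters but no match to the other motifs searched. Capitals mark matches, on either strand, to the AP-1 motif TGANTCA or the interferon-stimulated response element (ISRE) motif, which is GAAA, any 2 bases and GAAA.
Tnfsf13b, chr8:10006383-10006682, plus strand: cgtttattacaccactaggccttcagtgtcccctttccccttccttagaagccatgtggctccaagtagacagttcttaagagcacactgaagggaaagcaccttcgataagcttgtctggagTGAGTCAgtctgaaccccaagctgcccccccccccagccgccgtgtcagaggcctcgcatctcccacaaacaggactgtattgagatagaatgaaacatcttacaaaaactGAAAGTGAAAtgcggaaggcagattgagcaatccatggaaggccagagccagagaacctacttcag
Tnfsf13, chr11:69685505-69685804, minus strand: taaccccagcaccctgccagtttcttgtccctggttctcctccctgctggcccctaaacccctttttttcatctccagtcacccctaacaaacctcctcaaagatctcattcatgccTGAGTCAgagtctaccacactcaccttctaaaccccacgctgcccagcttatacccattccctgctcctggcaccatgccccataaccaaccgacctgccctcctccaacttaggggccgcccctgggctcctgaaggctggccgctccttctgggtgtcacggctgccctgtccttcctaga
Tnfsf14, chr17:57194132-57194431, minus strand: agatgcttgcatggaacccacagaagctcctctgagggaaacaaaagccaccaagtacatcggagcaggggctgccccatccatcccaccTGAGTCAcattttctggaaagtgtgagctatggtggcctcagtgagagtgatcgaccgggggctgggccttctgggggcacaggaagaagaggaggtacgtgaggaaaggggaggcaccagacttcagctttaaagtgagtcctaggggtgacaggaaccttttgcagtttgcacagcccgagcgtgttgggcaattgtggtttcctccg

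The 3 windows each held 1 match to the AP-1 letters, although their genes went in opposite directions between the subsets. Of 32851 promoter windows of the genome, 7.81% held such a match. Only the printed *Tnfsf13b* window of these 3 held the ISRE letters, which 3.44% of all windows held, and the *Tnfrsf1b* window also held them. Windows were given for 6 of the 8 members, with none for *Tnfsf12* and *Tnfsf9*. The windows of *Tnfsf10*, *Tnfrsf1a* and *Tnfrsf1b* held no AP-1 match, although *Tnfrsf1a* was also called between the subsets in both organs. The *Tnfsf14* window alone matched the NF-kB letters, which are GGGA, any 4 bases and CC (20.7% of all windows), the printed *Tnfsf13b* window and the *Tnfsf14* window matched the C/EBP letters TTGCNNAA (10.8%), and no member window matched the PU.1 letters AGGAAGT (9.35%). Both strands were searched, and matches of different motifs could overlap. These matches describe letters and not binding.

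BAFF mRNA was higher in the Gr-1hi subset in both organs. *Tnfsf13b* (ENSMUSG00000031497, chromosome 8, 10006467 to 10039072, plus strand, GRCm38) was at 85.2 and 74.5 CPM in BM Gr-1hi, 37.4 and 63.4 in SP Gr-1hi, 11.3 and 10.5 in SP Gr-1lo and 7.62 and 7.10 in BM Gr-1lo libraries. Every Gr-1hi library was above every Gr-1lo library, and the 2 SP Gr-1hi libraries differed from each other more than those of any other group. A lack of overlap was common, here and for the members below. It held between the subsets for 88.9% of all genes tested in BM and 86.2% in SP. The log2 FC of Gr-1hi over Gr-1lo in BM was 3.44 (SE 0.24, adjusted p = 2.82e-06), while that in SP was 2.21 (SE 0.22, adjusted p = 3.95e-05). These adjusted p values, and all others below, come from the quasi-likelihood test of edgeR over 17650 genes, adjusted by Benjamini and Hochberg. BAFF mRNA in Gr-1lo cells was 9.22% of the Gr-1hi level in BM and 21.6% in SP. The 6 neutrophil markers were at 0.282% (*Retnlg*) to 5.70% (*Csf3r*) of their Gr-1hi level in BM Gr-1lo, and at 0.319% (*Retnlg*) to 13.3% (*S100a8*) in SP Gr-1lo cells, and their part in the Gr-1lo level of BAFF mRNA was not tested.

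APRIL mRNA had the reverse distribution. *Tnfsf13* (ENSMUSG00000089669, chromosome 11, 69682846 to 69685784, minus strand) was at 49.2 and 40.8 CPM in SP Gr-1lo and 42.5 and 41.3 CPM in BM Gr-1lo, but at 2.62 and 2.33 CPM in SP Gr-1hi and 1.20 and 1.98 CPM in BM Gr-1hi libraries. The Gr-1lo libraries of both organs had overlapping levels, far above all Gr-1hi libraries. The log2 FC of Gr-1hi over Gr-1lo in BM was -4.73 (SE 0.21, adjusted p = 2.55e-07), while that in SP was -4.18 (SE 0.19, adjusted p = 7.05e-07). Gr-1hi cells held 3.79% of the Gr-1lo level in BM and 5.50% in SP. The 6 monocyte markers were at 0.527% (*Fn1*) to 69.0% (*Ly6c2*) of their Gr-1lo level in BM Gr-1hi, and at 0.0961% (*Fn1*) to 53.7% (*Ly6c2*) in SP Gr-1hi cells, and their part was not tested either.

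TWEAK mRNA followed APRIL at a lower level. *Tnfsf12* (ENSMUSG00000097328, chromosome 11, 69686250 to 69695849, minus strand) lies directly upstream of *Tnfsf13*. It was at 9.14 and 9.06 CPM in SP Gr-1lo, 9.63 and 9.67 CPM in BM Gr-1lo, 0.754 and 0.638 CPM in SP Gr-1hi and 0.710 and 0.578 CPM in BM Gr-1hi libraries. The subsets did not overlap, and within each subset the organs lay close together. The log2 FC of Gr-1hi over Gr-1lo in BM was -3.89 (SE 0.20, adjusted p = 4.58e-07), while that in SP was -3.70 (SE 0.19, adjusted p = 1.13e-06).

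The values of APRIL and TWEAK are not fully separable. The readthrough gene *Tnfsfm13* (ENSMUSG00000018752, chromosome 11, 69682577 to 69696098), which encodes the TWEAK-APRIL fusion TWE-PRIL, covers both genes and shares 983 of 1637 exon bases of *Tnfsf13* and 731 of 1515 exon bases of *Tnfsf12*. Its counts came to 86.3% to 93.6% of the summed *Tnfsf13* and *Tnfsf12* counts in each library. In the same table, 460 of 576 genes without any exon base of their own carried counts, so reads in shared exons appear to have been counted for more than 1 gene. Which of the 3 transcripts the shared reads came from cannot be told from gene counts. The antisense gene *Tnfsf13os* had 4.76% to 18.4% as many counts as *Tnfsf13*, and the labels name a stranded library kit and call the count table stranded, without the setting itself.

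Set side by side per length, the pair divided the subsets. *Tnfsf13* exceeded *Tnfsf13b* 16.3 to 24.4 times in TPM in the 4 Gr-1lo libraries, and *Tnfsf13b* exceeded *Tnfsf13* 3.40 to 17.0 times in the 4 Gr-1hi libraries. *Tnfsf13* stood at 72.1 to 90.6 TPM in Gr-1lo libraries, above 88.5% to 90.9% of the tested genes in those libraries. *Tnfsf13b* stood at 11.4 to 21.3 TPM in Gr-1hi libraries, above 63.8% to 76.9% of the tested genes. In TPM, which had no TMM scaling, APRIL mRNA in its subset was thus higher than BAFF mRNA in the other, with no overlap between those libraries. This order across subsets rests on the exon lengths used and on reads that *Tnfsf13* shares with *Tnfsfm13*. In CPM, which is not divided by length, the ranges overlapped, at 40.8 to 49.2 for *Tnfsf13* in Gr-1lo and 37.4 to 85.2 for *Tnfsf13b* in Gr-1hi libraries.

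**Figure D1:**
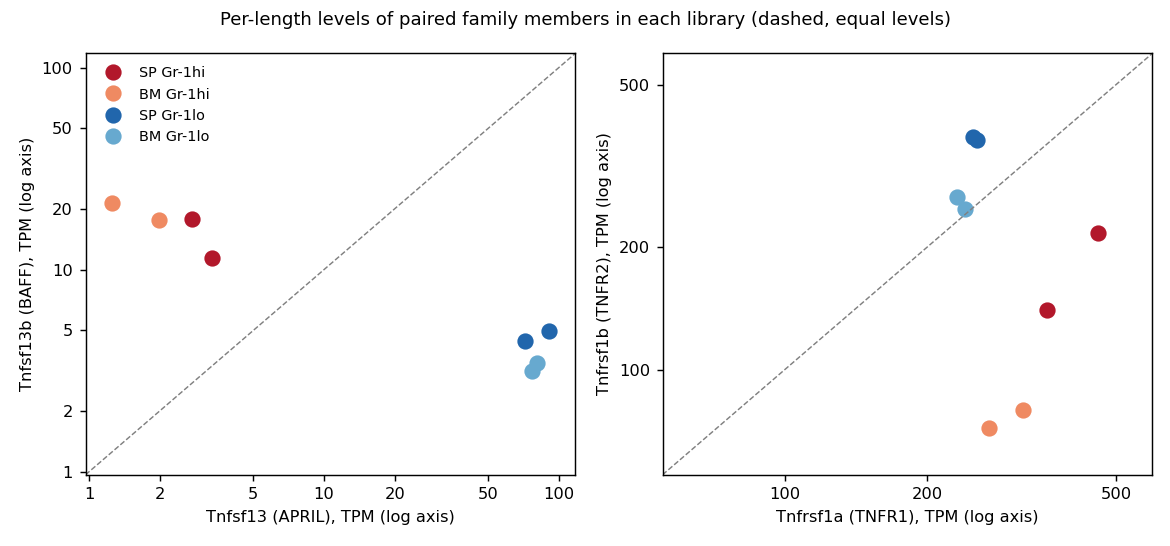
Levels per exon length (TPM, log axes) of *Tnfsf13* and *Tnfsf13b* (left) and of *Tnfrsf1a* and *Tnfrsf1b* (right), 1 point per library, coloured by group, with a dashed line of equal levels. Gr-1lo libraries lie at *Tnfsf13* to *Tnfsf13b* ratios of 16.3 to 24.4 and Gr-1hi libraries on the other side of the line, while the *Tnfrsf1b* to *Tnfrsf1a* ratio is 1.03 to 1.49 in Gr-1lo and 0.251 to 0.471 in Gr-1hi libraries.

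LIGHT was the most abundant of the 6 ligand mRNAs per length in each Gr-1hi library. *Tnfsf14* (ENSMUSG00000005824, chromosome 17, 57189492 to 57194177, minus strand) was at 197 and 133 CPM in SP Gr-1hi, 108 and 89.0 CPM in BM Gr-1hi, 24.7 and 21.2 CPM in SP Gr-1lo and 25.8 and 21.5 CPM in BM Gr-1lo libraries. The Gr-1hi libraries were all above the Gr-1lo libraries, and SP Gr-1hi lay above BM Gr-1hi without overlap. The libraries of these 2 groups did not overlap, in either direction, for 67.8% of all genes tested. The log2 FC of Gr-1hi over Gr-1lo in SP was 2.85 (SE 0.21, adjusted p = 6.38e-06), while that in BM was 2.06 (SE 0.20, adjusted p = 2.30e-05). In TPM, *Tnfsf14* was at 78.6 to 224 in Gr-1hi libraries, above 92.4% to 96.8% of the tested genes.

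4-1BB ligand and TRAIL mRNA were scarce, and were lowest in BM Gr-1hi cells. *Tnfsf9* (ENSMUSG00000035678, chromosome 17, 57105325 to 57107757, plus strand) was at 0.673 and 0.743 CPM in BM Gr-1hi, 4.76 and 2.58 CPM in SP Gr-1hi, 2.09 and 1.53 CPM in SP Gr-1lo and 2.66 and 1.19 CPM in BM Gr-1lo libraries. *Tnfsf10* (ENSMUSG00000039304, chromosome 3, 27317028 to 27342427, plus strand) was at 1.08 and 0.991 CPM in BM Gr-1hi, and at 3.89 to 6.22 CPM in the other 6 libraries. For both genes BM Gr-1hi lay below all other libraries, and for *Tnfsf10* the other 3 groups overlapped. In BM, the log2 FC of Gr-1hi over Gr-1lo was -1.44 (SE 0.50, adjusted p = 0.0267) for *Tnfsf9* and -2.29 (SE 0.31, adjusted p = 0.000138) for *Tnfsf10*. In SP it was 1.03 (SE 0.42, adjusted p = 0.0530) for *Tnfsf9* and -0.19 (SE 0.26, adjusted p = 0.522) for *Tnfsf10*, and neither passed the test. The BM call of *Tnfsf9* rested on few counts, 36 over the 2 BM Gr-1hi libraries, and was lost without library 9, 10 or 11 (adjusted p = 0.133, 0.106 and 0.185). The SP value of *Tnfsf9* was called under 6 of 14 alternatives, among them RLE scaling (1.17, adjusted p = 0.0355) and leaving out library 6 (1.38, adjusted p = 0.0212), and was 0.50 (adjusted p = 0.367) without library 5.

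Per length, both receptor mRNAs were above 91.6% of the tested genes or more in every library. *Tnfrsf1a* (ENSMUSG00000030341, chromosome 6, 125349362 to 125362484, plus strand) was at 569 and 480.3 CPM in SP Gr-1hi, 479 and 429 CPM in BM Gr-1hi, 219 and 223 CPM in SP Gr-1lo and 192 and 204 CPM in BM Gr-1lo libraries. Gr-1hi and Gr-1lo libraries did not overlap, and within each subset SP lay slightly above BM. The log2 FC of Gr-1hi over Gr-1lo in BM was 1.20 (SE 0.11, adjusted p = 9.90e-06), while that in SP was 1.25 (SE 0.11, adjusted p = 1.17e-05). On quantile-normalized TPM both were under an FC of 2, with log2 FCs of 0.78 and 0.85. *Tnfrsf1b* (ENSMUSG00000028599, chromosome 4, 145213463 to 145246870, minus strand) was at 463 and 490.1 CPM in SP Gr-1lo, 327 and 309 CPM in BM Gr-1lo, 395 and 277 CPM in SP Gr-1hi and 177 and 168 CPM in BM Gr-1hi libraries. SP Gr-1lo was highest and BM Gr-1hi lowest, while SP Gr-1hi and BM Gr-1lo overlapped. It was lower in Gr-1hi cells by less than the FC of 2 used for calls, with a BM log2 FC of -0.88 (SE 0.15, adjusted p = 0.000647) and an SP value of -0.50 (SE 0.15, adjusted p = 0.0143). The SP value was -0.81 without library 5 and -0.29 without library 6, and did not pass without library 8 (adjusted p = 0.0590) or with RLE scaling (adjusted p = 0.0648). Per length, the ratio of *Tnfrsf1b* to *Tnfrsf1a* was 1.43 and 1.49 in SP Gr-1lo, 1.15 and 1.03 in BM Gr-1lo, 0.471 and 0.391 in SP Gr-1hi and 0.251 and 0.266 in BM Gr-1hi libraries, so TNFR2 mRNA exceeded TNFR1 mRNA in every Gr-1lo library and in no Gr-1hi library.

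**Figure D2:**
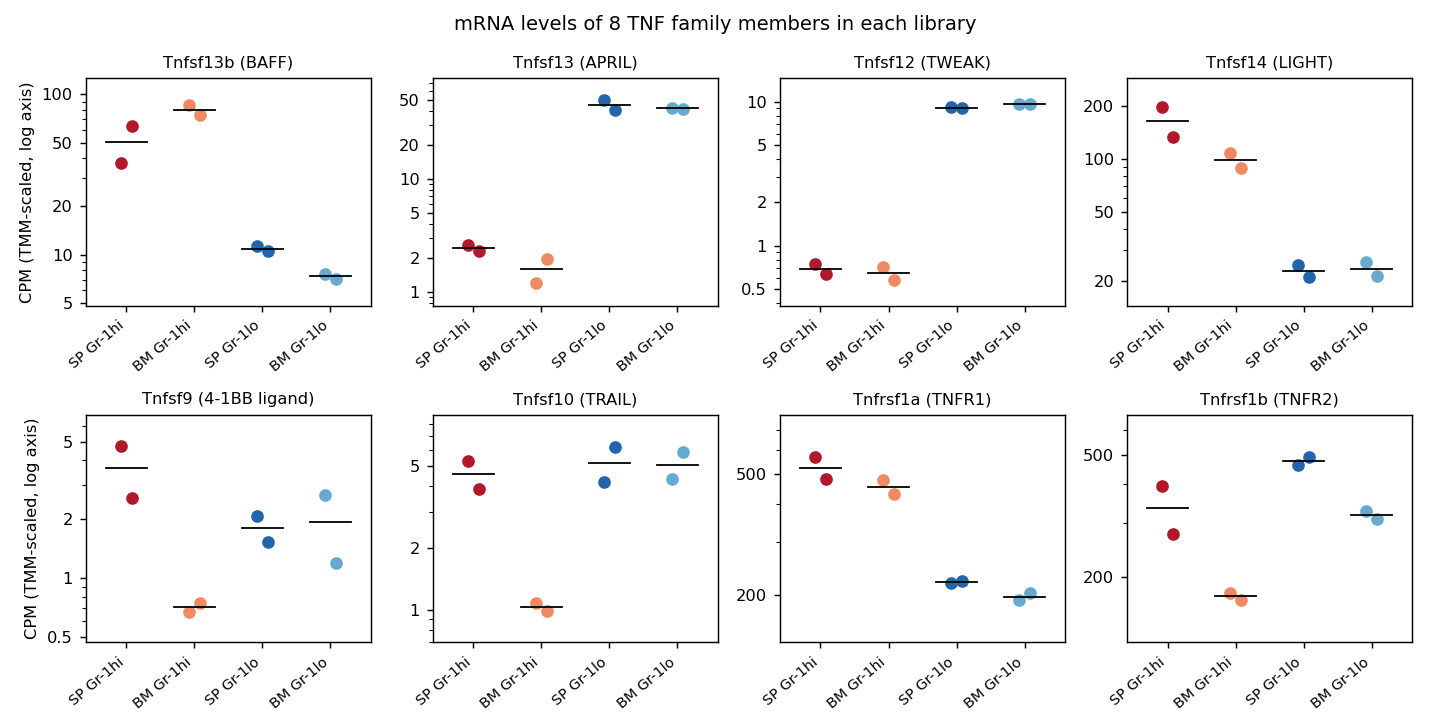
CPM of each member in the 8 libraries (log axes, with a range of its own in each panel), with points for libraries and a black line at the mean of the 2 libraries of a group. *Tnfsf13b* runs from 37.4 to 85.2 CPM in Gr-1hi and 7.10 to 11.3 CPM in Gr-1lo libraries, whereas *Tnfsf13* runs from 1.20 to 2.62 and from 40.8 to 49.2 CPM.

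A gene was called where its adjusted p was 0.05 or less and its FC 2 or more. By this rule 7 of the 8 members differed between the subsets in BM, 3 higher and 4 lower in Gr-1hi, where 57.3% of all genes tested were called (24.2% higher and 33.1% lower). In SP 5 of 8 were called, 3 higher and 2 lower, against 49.6% of all genes (22.3% higher and 27.4% lower). The members called in both organs were *Tnfsf13b*, *Tnfsf14* and *Tnfrsf1a*, higher in Gr-1hi, and *Tnfsf13* and *Tnfsf12*, lower. With stricter limits (FC above 8, adjusted p below 0.01), *Tnfsf13*, *Tnfsf12* and *Tnfsf13b* were called in BM, where 16.7% of all genes were, and *Tnfsf13* and *Tnfsf12* in SP, where 7.37% were. The median log2 FC of the 8 members was -1.16 in BM and 0.42 in SP, beside -0.17 and -0.09 over all genes.

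Between the organs, the Gr-1lo subset showed no called member. In SP Gr-1lo against BM Gr-1lo cells 0 of 8 members were called by edgeR's test, where 4.06% of all genes tested were, and DESeq2 also called 0. An unadjusted p under 0.05 was reached by 2 members. They were *Tnfsf13b* with a log2 FC of 0.56 (SE 0.22, adjusted p = 0.214) and *Tnfrsf1b* with 0.58 (SE 0.15, adjusted p = 0.0642). The libraries of both genes did not overlap between the organs, as held for 59.7% of all genes. The log2 FC was 0.10 (SE 0.15) for *Tnfsf13*, -0.08 (SE 0.15) for *Tnfsf12*, -0.04 (SE 0.20) for *Tnfsf14* and 0.16 (SE 0.10) for *Tnfrsf1a*. The SEs were widest for 2 scarce mRNAs, with -0.10 (SE 0.42) for *Tnfsf9* and 0.04 (SE 0.25) for *Tnfsf10*. The median over the members was 0.07, and that over all genes -0.01.

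In the Gr-1hi subset, 4-1BB ligand and TRAIL mRNA were higher in the spleen. For SP Gr-1hi against BM Gr-1hi cells, *Tnfsf9* gave a log2 FC of 2.37 (SE 0.49, adjusted p = 0.00787) and *Tnfsf10* one of 2.14 (SE 0.31, adjusted p = 0.00180). These 2 of 8 members were called higher and 0 lower, where 14% of all genes tested were called higher and 1.48% lower. Smaller increases passed the test but not the FC of 2 for *Tnfrsf1b* (0.96, SE 0.15, adjusted p = 0.00245) and *Tnfsf14* (0.74, SE 0.19, adjusted p = 0.0203). Without library 5 the values were 0.60 for *Tnfrsf1b* (adjusted p = 0.00400) and 0.35 for *Tnfsf14* (adjusted p = 0.169), and *Tnfsf14* did not pass without library 9 or 10 either (adjusted p = 0.0524 and 0.163). Without library 6 *Tnfrsf1b* was called, at 1.11. BAFF mRNA fell by 0.66 on the log2 scale (SE 0.21, adjusted p = 0.0438). *Tnfsf13* (0.65, SE 0.23, adjusted p = 0.0613), *Tnfrsf1a* (0.21, SE 0.10, adjusted p = 0.157) and *Tnfsf12* (0.11, SE 0.25, adjusted p = 0.822) did not pass. The median over the members was 0.70 and that over all genes 0.03.

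Libraries and other cells moved with these differences. On quantile-normalized TPM, neither *Tnfsf9* (log2 FC 1.94, adjusted p = 0.101) nor *Tnfsf10* (1.59, adjusted p = 0.974) passed, and without library 9 *Tnfsf9* had an adjusted p of 0.0553. Over 14 alternatives the log2 FC was 1.79 to 2.67 for *Tnfsf9* and 1.59 to 2.26 for *Tnfsf10*. The BAFF difference depended on the SP Gr-1hi library, since it was -1.17 and called without library 6 and -0.41 (adjusted p = 0.113) without library 5. Without libraries 5 and 7 it was -0.32. All 10 B cell markers and 7 of 8 T cell markers were called higher in SP Gr-1hi than in BM Gr-1hi, with summed levels of 57.6 to 93.1 against 6.15 to 9.46 CPM for T cells. The summed level of 7 dendritic cell markers was 109.9 to 111 against 27.4 to 40.7 CPM. Of these markers 4 were called higher, 1 was called lower and 2 were not called. Most of the sum was *Itgax*, with means of 82.9 against 27.5 CPM. The summed level of 6 neutrophil markers, of which none was at 0, was 56677 to 65528 against 87360 to 94555 CPM. Of these, *S100a8*, *S100a9* and *Retnlg* were lower in SP Gr-1hi and passed the test, *Csf3r* was higher and passed (0.86, adjusted p = 0.00565), and *Ly6g* (-0.85, adjusted p = 0.0562) and *Cxcr2* (0.06, adjusted p = 0.782) did not pass. The part of these cells in the member differences was not tested. In Gr-1lo cells 9 of 10 B cell markers and 8 of 8 T cell markers were also called higher in the spleen. Their summed levels in SP Gr-1lo were below those in SP Gr-1hi, at 66.7 to 83.8 CPM for B cells and 19.6 to 28.8 CPM for T cells. *Tnfsf9* and *Tnfsf10* had log2 FCs of -0.10 and 0.04 in Gr-1lo cells, which does not test the part of other cells in Gr-1hi. In bulk RNA, fewer cells of a type and less mRNA per cell cannot be told apart.

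**Figure D3:**
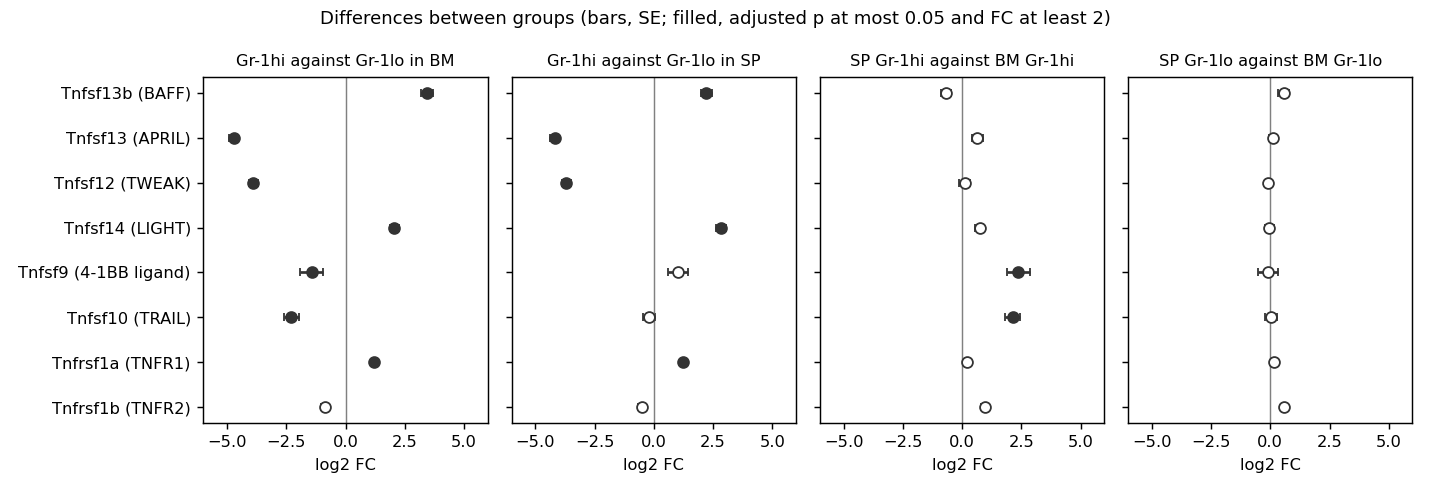
Log2 FC of each member in the 4 comparisons with bars of 1 SE, where filled points passed both limits of a call and positive values are higher in the group named first. *Tnfsf13b* and *Tnfsf13* lie on opposite sides of 0 between the subsets (3.44 and -4.73 in BM), whereas no point is filled for SP Gr-1lo against BM Gr-1lo.

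Whether the organ mattered differently in the subsets was tested directly, as the log2 FC of SP over BM in Gr-1hi less that in Gr-1lo cells. It was called for 3 of 8 members, where 9.74% of all genes tested were (7.74% higher and 2% lower). The difference was -1.23 (SE 0.31, adjusted p = 0.0336) for *Tnfsf13b*, so the gap in BAFF mRNA between the subsets was narrower in SP. It was 2.47 (SE 0.65, adjusted p = 0.0370) for *Tnfsf9* and 2.10 (SE 0.40, adjusted p = 0.0128) for *Tnfsf10*. For *Tnfsf14* (0.79, adjusted p = 0.0893), *Tnfsf13* (0.55, adjusted p = 0.219), *Tnfrsf1b* (0.38, adjusted p = 0.260), *Tnfsf12* (0.19, adjusted p = 0.722) and *Tnfrsf1a* (0.05, adjusted p = 0.852) no difference passed. None of the 8 was called without libraries 5 and 7, where the values were -0.82, 2.22 and 1.64 for the 3 genes, and none without library 9.

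The receptors for these ligands were read in the same cells. Of 11 listed receptors 9 passed the filter. In BM 2 were called higher and 1 lower in Gr-1hi (median log2 FC 0.10), and in SP 4 higher and 1 lower (median 0.68). The shares over all genes, which stand beside these and the following counts of listed genes, were 24.2% higher and 33.1% lower in BM and 22.3% higher and 27.4% lower in SP. Nothing particular to a list was tested. TACI mRNA (*Tnfrsf13b*), a receptor for both BAFF and APRIL, was at 65.1 and 73.5 CPM in BM Gr-1lo, 57.1 and 58.3 CPM in SP Gr-1lo, 20.1 and 14.9 CPM in SP Gr-1hi and 8.75 and 9.00 CPM in BM Gr-1hi libraries. It was thus higher in the subset with APRIL mRNA, with log2 FCs of Gr-1hi over Gr-1lo of -2.96 in BM (SE 0.15, adjusted p = 4.62e-07) and -1.72 in SP (SE 0.14, adjusted p = 9.48e-06). B cells express TACI too, and the part of B cells in these levels was not tested. The gap between the subsets was narrower in SP (1.25, SE 0.20, adjusted p = 0.00691).

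BAFF-R mRNA had another distribution. *Tnfrsf13c*, the main BAFF receptor of mature B cells, was at 17.4 and 10.9 CPM in SP Gr-1hi, 1.92 and 2.68 CPM in SP Gr-1lo, 0.374 and 0.413 CPM in BM Gr-1hi and 0.205 and 0.0945 CPM in BM Gr-1lo libraries. It was higher in SP than in BM in both subsets, by 5.16 (SE 0.39, adjusted p = 0.000132) in Gr-1hi and 3.95 (SE 0.42, adjusted p = 0.00119) in Gr-1lo on the log2 scale. The summed level of the 10 B cell markers had the same order of groups, from 360.4 to 537 CPM in SP Gr-1hi down to 8.07 to 9.90 CPM in BM Gr-1lo libraries, and its part was not tested. BCMA (*Tnfrsf17*) did not pass the filter, with 23 counts over the SP Gr-1lo libraries and at most 3 in each other group.

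The LIGHT receptors *Tnfrsf14* (HVEM) and *Ltbr* had means of 46.9 to 65.9 and 92.3 to 126 CPM over the groups, and neither was called in any comparison. The TWEAK receptor *Tnfrsf12a* (Fn14) was at 1.62 to 2.30 CPM and was not called either. The TRAIL death receptor *Tnfrsf10b* was higher in Gr-1hi cells, with a BM log2 FC of 1.86 (SE 0.41, adjusted p = 0.00309) and an SP value of 2.65 (SE 0.38, adjusted p = 0.000268), and higher in SP than in BM Gr-1hi cells (1.11, SE 0.37, adjusted p = 0.0475). The TRAIL decoy receptor *Tnfrsf23* was higher in Gr-1hi cells by 2.16 in BM (SE 0.24) and by 2.43 in SP (SE 0.23). The 4-1BB gene *Tnfrsf9* reached 1.94 CPM in SP Gr-1hi libraries and had 2 counts over the BM Gr-1hi libraries. Between the organs 2 of 9 receptors were called higher in SP for Gr-1lo cells (median 0.17) and 4 of 9 for Gr-1hi cells (median 0.98), with none lower. *Tnfrsf9* passed the filter through its spleen level and could not have been called lower in SP. Over all genes, 3.84% were called higher and 0.215% lower in SP for Gr-1lo cells, and 14% and 1.48% for Gr-1hi cells.

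Of 12 other TNF ligands listed 7 passed the filter, with 5 higher and 0 lower in Gr-1hi than Gr-1lo cells of SP (median 1.89) and 3 higher and 1 lower in BM (median 2.19 over 6, leaving out *Cd40lg*, which had 0 counts in BM). Lymphotoxin beta (*Ltb*) was at 88.5 and 72.0 CPM in BM Gr-1hi, 131 and 113 CPM in SP Gr-1hi, 6.06 and 5.45 CPM in SP Gr-1lo and 1.25 and 1.15 CPM in BM Gr-1lo libraries. Its log2 FC of Gr-1hi over Gr-1lo in BM was 6.06 (SE 0.17, adjusted p = 8.09e-08), while that in SP was 4.41 (SE 0.14, adjusted p = 2.52e-07). *Tnf*, the ligand of TNFR1 and TNFR2, was at 98.5 and 102 CPM in BM Gr-1hi, 41.2 and 78.5 CPM in SP Gr-1hi, 20.7 and 25.9 CPM in SP Gr-1lo and 14.5 and 13.2 CPM in BM Gr-1lo libraries. It was higher in Gr-1hi cells by 2.85 in BM (SE 0.28, adjusted p = 3.27e-05) and by 1.36 in SP (SE 0.27, adjusted p = 0.00212), and this narrowing passed the test (-1.49, SE 0.37, adjusted p = 0.0350), as for BAFF.

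Between the organs, 4 of the 7 tested ligands were called higher in SP Gr-1hi than BM Gr-1hi (median 3.15) and 3 of 7 in SP Gr-1lo than BM Gr-1lo (median 2.11 with *Cd40lg* at the limit its 0 counts allow), with none lower. That 2.11 is the limit of *Cd40lg* itself, and with its fitted value the median was 2.25. *Tnfsf8* (CD30 ligand) rose by 5.45 (SE 0.59, adjusted p = 0.000461) and *Lta* (lymphotoxin alpha) by 3.71 (SE 0.47, adjusted p = 0.000964) in SP Gr-1hi. *Cd40lg*, the CD40 ligand of helper T cells, had 82 counts in SP Gr-1hi, 35 in SP Gr-1lo and 0 in BM libraries. From high to low, the summed T cell markers had the order SP Gr-1hi, SP Gr-1lo, BM Gr-1hi, BM Gr-1lo, as did *Lta*. *Cd40lg* had this order within SP. *Tnfsf8* did not have it, with BM means of 0.0787 CPM in Gr-1hi and 0.283 CPM in Gr-1lo libraries. Its organ difference was larger in Gr-1hi than in Gr-1lo cells (by 3.71, SE 0.80, adjusted p = 0.0193). The part of T cells in these 3 genes was not tested. The rise of *Tnfsf8* rested on 4 counts over the BM Gr-1hi libraries, and its SP Gr-1hi libraries were at 2.30 and 4.82 CPM. *Lta* had 13 counts over the BM Gr-1hi and 3 over the BM Gr-1lo libraries. *Fasl* had 6 and 4 counts over the BM Gr-1hi and BM Gr-1lo libraries, and *Tnfsf15* had 5 and 10. *Lta*, *Cd40lg*, *Fasl* and *Tnfsf15* passed the filter through their spleen levels and could not have been called lower in SP. The filter thus partly sets the counts of called ligands and the medians between the organs. *Tnf* did not pass in SP Gr-1hi against BM Gr-1hi cells (-0.74, SE 0.26, adjusted p = 0.0626).

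**Figure D4:**
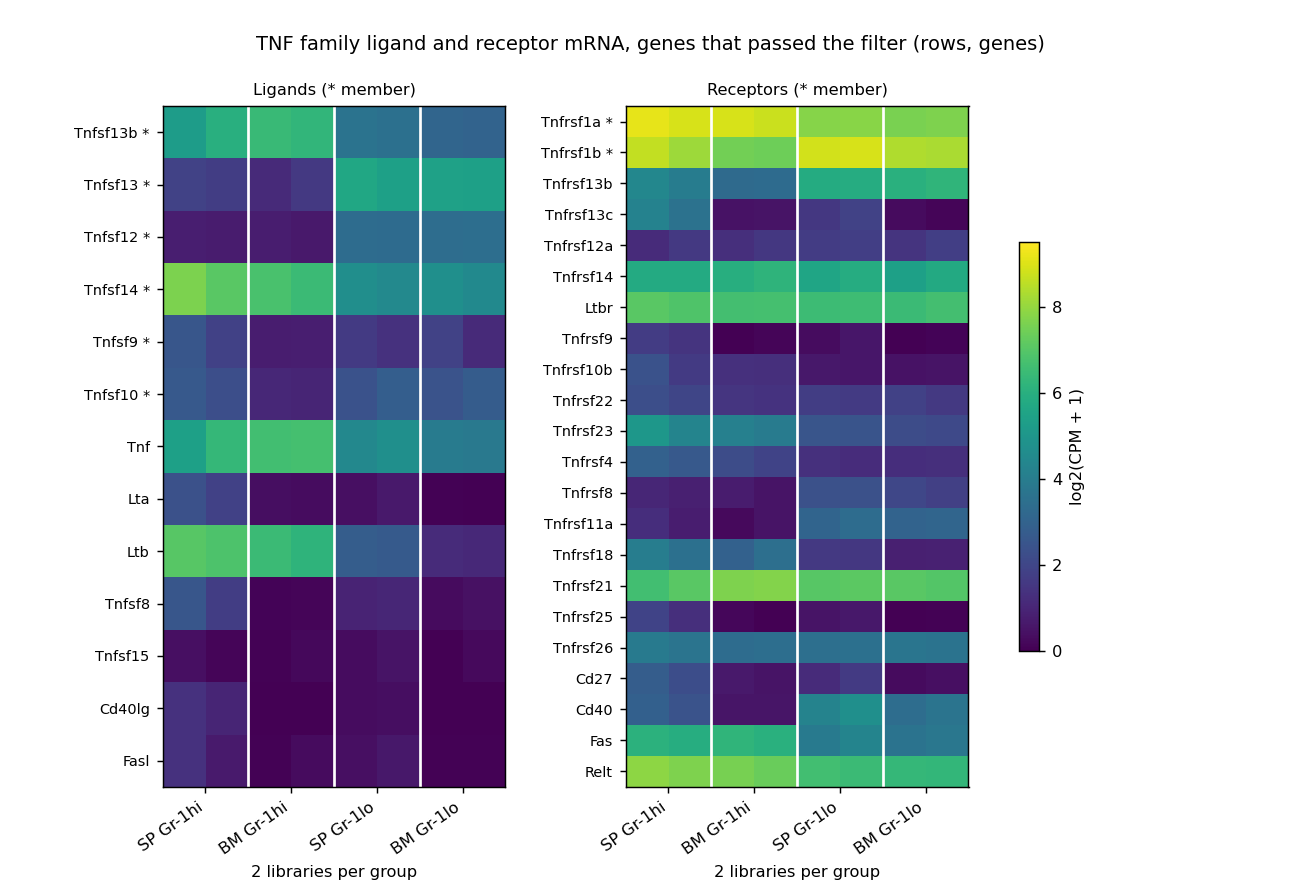
Levels of 13 ligand and 22 receptor mRNAs of the TNF family that passed the filter, as log2(CPM + 1), in 8 columns for the libraries of the 4 groups, with asterisks on the 8 members. *Tnfsf13b*, *Tnfsf14*, *Tnf* and *Ltb* are brighter in the Gr-1hi columns, and *Tnfsf13*, *Tnfsf12* and *Tnfrsf13b* in the Gr-1lo columns.

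Among 11 other TNF receptors that passed the filter, of 15 listed, 4 were called higher and 3 lower in Gr-1hi cells of BM (median 0.88), and 6 higher and 3 lower in SP (median 1.24). *Fas*, a death receptor, was higher in Gr-1hi cells of BM (2.53, SE 0.15, adjusted p = 1.002e-06), as was *Tnfrsf18* (GITR, 3.35, SE 0.28, adjusted p = 6.44e-06). *Cd40*, the receptor by which T cells activate antigen-presenting cells, and *Tnfrsf11a* (RANK) were higher in Gr-1lo cells, with log2 FCs of Gr-1hi over Gr-1lo of -4.54 (SE 0.34) and -4.61 (SE 0.40) in BM and of -1.98 (SE 0.24) and -2.99 (SE 0.32) in SP. *Cd40* also rose in SP Gr-1hi over BM Gr-1hi cells (3.59, SE 0.35, adjusted p = 0.000328), and B cells express it too. Between the organs, 4 of 11 were called higher and 0 lower in each subset, with medians of 0.44 in Gr-1lo and 0.81 in Gr-1hi cells. Among the 11, *Tnfrsf25* had 3 counts over the BM Gr-1hi and 2 over the BM Gr-1lo libraries. It passed the filter through its spleen level and could not have been called lower in SP.

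Downstream of the receptors, all 29 listed signalling genes passed the filter. In BM 9 were called higher and 5 lower in Gr-1hi cells (median 0.21), and in SP 5 higher and 4 lower (median 0.17). The necroptosis kinase *Ripk3* and its substrate *Mlkl* were lower in Gr-1hi cells, by log2 FCs of -2.60 (SE 0.23, adjusted p = 1.35e-05) and -2.95 (SE 0.27, adjusted p = 1.57e-05) in BM and of -1.68 (SE 0.22, adjusted p = 0.000174) and -2.82 (SE 0.26, adjusted p = 2.81e-05) in SP. The death domain adaptor *Fadd* was lower too, with log2 FCs of -2.17 in BM (SE 0.18) and -1.86 in SP (SE 0.17). *Rnf31*, the catalytic subunit of the linear ubiquitin ligase, was higher by 1.56 in BM (SE 0.11) and by 1.67 in SP (SE 0.11), and *Tab3*, an adaptor of the kinase TAK1, by 1.46 (SE 0.09) and 1.34 (SE 0.09). Between the organs 2 of 29 were called higher in each subset and 0 lower, with medians of 0.04 in Gr-1lo and 0.05 in Gr-1hi cells. The adaptor *Traf1* was among them in both, by 5.04 (SE 0.40, adjusted p = 0.000405) in Gr-1lo and 3.55 (SE 0.34, adjusted p = 0.000318) in Gr-1hi. It had 20 counts over the BM Gr-1lo libraries. B and T cell markers were also higher in the spleen in both subsets, and the part of these cells in *Traf1* was not tested. *Tnfaip3* (A20), a brake on NF-kB signalling, rose in SP Gr-1lo cells (1.14, SE 0.20, adjusted p = 0.0141), and *Traf5* in SP Gr-1hi cells (1.18, SE 0.19, adjusted p = 0.00257).

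Of the 8 genes listed for shedding and processing 7 passed the filter. *Furin*, the protease that cleaves BAFF and APRIL, was higher in Gr-1hi cells by 1.69 in BM (SE 0.14, adjusted p = 5.33e-06) and by 1.66 in SP (SE 0.13, adjusted p = 8.98e-06), with group means of 385 and 471 CPM against 120 and 149 CPM. *Rhbdf2* (iRhom2), which the TNF sheddase needs to mature, was higher by 1.80 (SE 0.11) and 1.34 (SE 0.11). The sheddases *Adam17* and *Adam10* themselves were at 103 to 130 and 124 to 147 CPM over the groups and were not called in any comparison. In all, 2 genes were called higher and 1 lower in Gr-1hi of BM (median -0.11), and 3 higher and 0 lower in SP (median 0.36). In SP against BM 0 of 7 were called in Gr-1lo (median 0.20) and 1 was higher in Gr-1hi (median 0.18), *Rhbdf1* at 4.03 (SE 0.47, adjusted p = 0.000698). *Rhbdf1* was scarce, with 7 counts over the BM Gr-1hi libraries and a mean of 2.30 CPM in SP Gr-1hi libraries.

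The genes whose profile over the 8 libraries was most like that of *Tnfsf13*, by Pearson correlation of log2 CPM among 8596 genes with a mean of at least 10 CPM, were *Tnfsfm13* (0.9994), which shares its reads, and *Ehd4*, *Smarcad1*, *Gatm* and *Eif3f*. For *Tnfsf13b* they were *Ubr2* (0.9990), *Syne1*, *Ino80d*, *Fmo5* and *Adpgk* (0.9980). Such values were common, since the libraries split into 2 subsets, and 427 genes for *Tnfsf13* and 282 for *Tnfsf13b* exceeded 0.99.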

How the data were processed

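Gene counts of 8 libraries, 2 per group, were analysed. According to the labels and the paper, the authors checked reads with FastQC, trimmed them with Sickle, aligned them to GRCm38 with STAR and counted them with featureCounts, and the deposited values are raw counts per gene without normalization. The library kit was stranded and the labels call the count table stranded, while the setting itself and that for reads on overlapping genes were not given in the sources used here. The labels do not link libraries to mice, and p-values measure the spread between the libraries.

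Counts were filtered by filterByExpr, scaled by TMM and fitted in 1 model of 8 libraries with edgeR 4.0.16 in R 4.3.3 (robust quasi-likelihood). The fit had 4 residual degrees of freedom. Adjustment of p-values was over 17650 genes. Calls needed an adjusted p of 0.05 or less and an FC of 2 or more. Each SE was taken as |log2 FC| over the root of the F statistic. Lengths for TPM came from GENCODE M21, which holds 53947 of the 54188 identifiers. Paired libraries differed beyond counting noise, the chi-square divided by its degrees of freedom being 66.7 for libraries 5 and 6 and 18.9 to 21.3 for the others. The procedure was tested on simulated data, but the outcome is not given here and no result above rests on it.

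The members and gene lists were chosen with earlier results of these data known. Besides the members, the text names, for each list and comparison, some of up to 3 called genes per direction with the largest FC and at least 1 CPM, the 5 genes most like *Tnfsf13* and *Tnfsf13b*, label checks, markers that move with a result and overlapping genes. *Tnfrsf14*, *Ltbr*, *Tnfrsf12a*, *Tnfrsf17*, *Adam10* and *Adam17*, as receptors or sheddases, were named after their values were seen. Alternatives used RLE scaling, DESeq2 1.42.0, no filter, edgeR's exact test after quantile normalization of TPM, the 4 libraries compared, each library left out in turn, and libraries 5 and 7 left out.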

Additional observations from a re-analysis of the deposited data

Results flagged for a closer look

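There were 3 members that differed between the subsets in how the spleen compared with the marrow, each by a test of the difference itself in edgeR's quasi-likelihood fit with Benjamini-Hochberg adjustment. For *Tnfsf13b* (BAFF), the log2 FC of SP over BM in Gr-1hi less that in Gr-1lo cells was -1.23 (adjusted p = 0.0336), with -0.66 in Gr-1hi and 0.56 in Gr-1lo. It ranged from -1.75 to -0.99 when single libraries were left out and passed in 2 of these 8 fits. For *Tnfsf9* (4-1BB ligand) the difference was 2.47 (adjusted p = 0.0370), from 2.37 and -0.10, and it ranged from 1.78 to 2.94 and passed in 2 of the 8 fits. For *Tnfsf10* (TRAIL) it was 2.10 (adjusted p = 0.0128), from 2.14 and 0.04, with a range of 1.76 to 2.42, and it passed in all fits but that without library 9 (adjusted p = 0.0505). Groups of 2 libraries were too small to look for a library far from the others.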

How the results depend on the processing

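No paired analysis was possible because the labels number the libraries 5 to 12 and no number is shared between groups. The paper calls the BM cells autologous, so libraries of different groups may come from the same mice, which the tests did not take into account. Of 544 values of single members under the alternatives, 485 kept their direction and side of the limits, 23 changed sign, 26 lost the call and 10 gained one, and the cause was not tested where not given. Members called in SP Gr-1hi against BM Gr-1hi numbered 2, but 1 on quantile-normalized TPM and 1 to 4 when single libraries were left out, the lowest without library 9 and the highest without library 6. For the difference of differences the 3 became 0 without libraries 5 and 7, and 0 to 3 when single libraries were left out, with 0 without library 9 and 1 without library 5, 7, 8 or 11. The counts of 0, 7 and 5 in the other comparisons stayed within 1.5 times under all alternatives. On quantile-normalized TPM, *Tnfrsf1b* was called in SP Gr-1hi against BM Gr-1hi (1.01) and between the subsets of BM (-1.32), and *Tnfsf9* and *Tnfsf10* lost their call between the subsets of BM.

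Sign changes were confined to values that were not called. For SP Gr-1lo against BM Gr-1lo, *Tnfsf10* gave -0.017 with RLE scaling, -0.031 with DESeq2 and -0.11 on quantile-normalized TPM, and *Tnfsf13* gave -0.047 without libraries 5 and 7. When single libraries were left out, the ranges were -0.28 to 0.29 for *Tnfsf10*, -0.031 to 0.24 for *Tnfsf13*, -0.17 to 0.094 for *Tnfsf14* and -0.57 to 0.59 for *Tnfsf9*. For SP Gr-1hi against BM Gr-1hi, *Tnfsf12* gave -0.48 on quantile-normalized TPM, -0.0042 without libraries 5 and 7, and -0.13 to 0.20 when single libraries were left out. Between the subsets of SP, *Tnfsf10* gave 0.10 on quantile-normalized TPM and -0.47 to 0.11 when single libraries were left out. For the difference of differences, *Tnfrsf1a* gave -0.066 without libraries 5 and 7, and the ranges when single libraries were left out were -0.18 to 0.091 for *Tnfrsf1a*, -0.058 to 0.27 for *Tnfsf12* and -0.0016 to 0.52 for *Tnfrsf1b*.

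Over all genes, calls numbered 716 for SP Gr-1lo against BM Gr-1lo (273 to 1077 over the alternatives), 2727 for SP Gr-1hi against BM Gr-1hi (688 to 3518), 10109 between the subsets of BM (5679 to 10682), 8761 between those of SP (4602 to 9415) and 1719 for the difference of differences (819 to 2488). The lowest counts came from quantile-normalized TPM, except for the last, which came from leaving out libraries 5 and 7. Between the subsets of BM TMM scaling put the median over all genes at -0.17 and RLE scaling put it at -0.03, and no member changed sign there. In each of the 5 comparisons, *Tnfsf9* (0.673 to 4.76 CPM) had the widest SE of the 8 members.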
